A study of Homo sapiens with 15 samples.

Results

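The comparison set H1 cells on day 4, after reseeding on a mix of laminin-521 and laminin-221 (LN-521+LN-221), against H1 cells on day 0, kept on LN-521. It used 6 of the 15 RNA-seq libraries of the series, 3 for each day, and all 20964 of the 48777 listed genes that had enough reads to be tested. H1 is an established human embryonic stem cell line, and both days share this 1 line. The study's methods name Nutristem as the medium in which the stem cells were maintained. Day 0 cells carried the label undifferentiated and day 4 cells the label differentiated. The deposited sample table lists LN-521 alone for day 0, whereas the sample labels name both laminins for every library, so the matrix of the day 0 cells rests on that table and on the study's scheme. The treatment notes place CHIR99021, an inhibitor of the kinase GSK3 that switches on Wnt signalling, at confluence on day 4, while the growth notes place it on earlier days. The methods give the inhibitor in a separate differentiation medium. Whether the day 4 cells had met the inhibitor or that medium before harvest is therefore not given. Days in culture, cell density, laminin, medium and any inhibitor cannot be told apart. The labels count 3 biological replicates per day without saying that they were separate cultures, so p-values measure the spread between these libraries, which may be technical.

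Laminins are heterotrimers of an alpha, a beta and a gamma chain that build basement membranes, and their names give the chains: LN-521 holds the alpha 5, beta 2 and gamma 1 chains, and LN-221 the alpha 2, beta 2 and gamma 1 chains. LN-521 resembles the laminin that pluripotent cells secrete for themselves and supports their self-renewal through integrin alpha 6 beta 1, whereas alpha 2 laminins are typical of heart and skeletal muscle. Primed human stem cells keep the factors POU5F1, SOX2 and NANOG high, depend on FGF and Activin or Nodal signals, and lose this state when Wnt activation drives them towards the primitive streak.

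Library totals ran from 11990302 to 33469703 counts, and the RNA integrity number was 9.9 or 10 in each of the 6 libraries. Day 0 replicate 3 had the lowest total and the lowest uniquely mapped share of reads, 35.0%, while the other 5 libraries had 61.0% to 86.0%. Day 0 replicate 2 stood apart from the other 5. Its counts differed from theirs by a median of 0.33 to 0.37 on the log2 scale over the genes tested, and all other pairs differed by 0.16 to 0.22. It was the library farthest from the median for 47.1% of genes, and 115 genes lay over 2-fold above all other libraries in it and 500 over 2-fold below. This library had the highest uniquely mapped share, an integrity number of 10 and the deepest total, so none of these values marked it as poor. Lane and library cannot be told apart for it, as for 3 of the other libraries that also had a lane to themselves. List medians are therefore given with and without day 0 replicate 2, and so are the values of many single genes.

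No gene passed the test. With edgeR's quasi-likelihood test and Benjamini-Hochberg adjustment, 0 of 20964 genes rose and 0 fell past an adjusted p of 0.05, which is 0% of genes, and the lowest adjusted p was 0.885. At an unadjusted p under 0.05 there were 741 genes, or 3.53%. DESeq2 also called 0 genes, with 703 (3.35%) at an unadjusted p under 0.05. Without day 0 replicate 2, edgeR called 0 of 21539 genes, with 838 (3.89%) at an unadjusted p under 0.05. In 1034 genes all day 4 libraries lay above all day 0 libraries (4.93%) and in 1066 all lay below (5.08%), together 10% of genes.

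The intervals say how large a change these libraries leave room for. For 66.5% of genes the 95% interval of the fold change lay wholly within 2-fold in either direction, and for 34.8% within 1.5-fold. Without day 0 replicate 2 these shares were 70.6% and 48.3%. The share depended on the level of the gene: 94.7% of the 2301 genes at 100 CPM or more (TMM-scaled counts relative to library size) were bounded within 2-fold, against 61.0% of the 6162 genes from 1 to 10 CPM and 10.5% of the 4287 genes under 1 CPM. The median absolute log2 fold change was 0.18. Pairs of libraries from different days, leaving out day 0 replicate 2, differed by a median of 0.16 to 0.22, the 3 pairs within day 4 by 0.19 to 0.21, and the 1 pair within day 0 by 0.17. The ranges between and within days overlapped. For scale, the next step of the protocol, day 9 against the same day 4 libraries, had 5162 genes higher and 5244 lower by the same test, 49% of 21252 genes (56.1% at an unadjusted p under 0.05), with a median absolute log2 fold change of 0.57.

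The core pluripotency genes did not pass the test in either direction. All 32 genes of this list passed the filter on low counts, 0 were called in either direction against 0% of all genes, and the median log2 fold change was -0.10 beside -0.01 for all genes tested. Without day 0 replicate 2 the median was 0.04. On day 9, 29 of the 32 were lower than on day 4 by the test and 0 were higher.

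POU5F1 (OCT4; chromosome 6, 31164337 to 31180731 in GRCh38), the factor on which the pluripotent state most depends, was counted at 955, 1150 and 867 CPM in day 0 replicates 1, 2 and 3. On day 4 it was counted at 863 CPM in plate 1, 864 in plate 2 and 1099 in plate 5. The days overlapped, and the log2 fold change was -0.07 (SE 0.16, 95% interval -0.44 to 0.29), which bounds a change at 1.36-fold, or 1.30-fold without day 0 replicate 2. POU5F1 and NANOG have near-identical retrocopies, with which the counting could have shared reads. SOX2 (chromosome 3, 181711925 to 181714436), the partner of OCT4 on DNA, stood at 631, 449 and 630 CPM on day 0 and 666, 566 and 543 CPM on day 4. Its log2 fold change of 0.05 (-0.32 to 0.43) bounds a change at 1.35-fold, or 1.31-fold without that library. For SALL4, a zinc finger factor of the same network, the values were 421, 377 and 425 CPM on day 0 against 453, 405 and 407 CPM on day 4, a bound of 1.26-fold, or 1.21-fold without that library. In each of the 3 factors the libraries of the days overlapped.

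**Figure D1:**
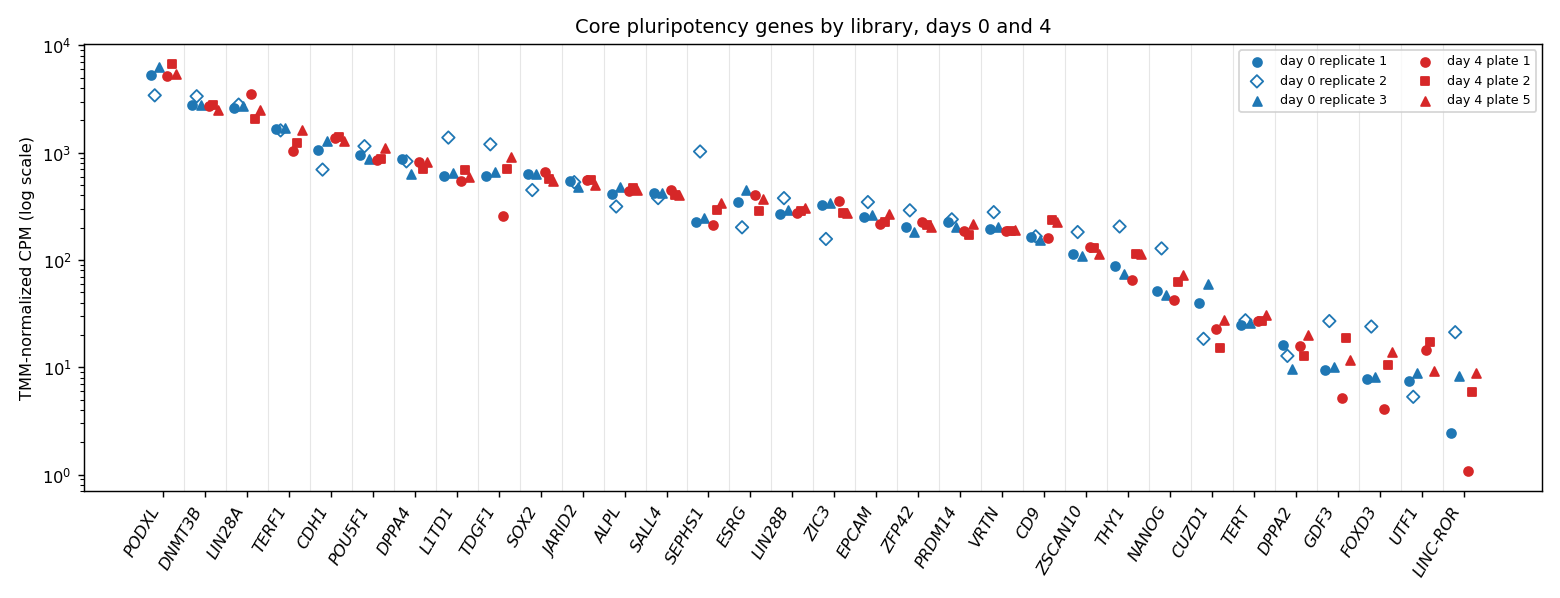
Levels of the 32 core pluripotency genes in each library, as TMM-normalized CPM on a log axis, ordered by mean level. Day 0 libraries are blue, with day 0 replicate 2 as an open diamond, and day 4 libraries are red. For POU5F1 all 6 libraries lie between 863 and 1150 CPM, while for SEPHS1 the open diamond stands alone at 1026 CPM.

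Some other members were bounded nearly as closely. Among abundant ones, TERF1 had a wider bound and L1TD1, TDGF1 and SEPHS1 lay outside 2-fold, as given below. LIN28A, an RNA-binding protein that blocks let-7 maturation, averaged 2719 ± 86 CPM on day 0 and 2689 ± 740 CPM on day 4 (SD, n = 3 each), a bound of 1.36-fold. DNMT3B, the de novo DNA methyltransferase typical of primed cells, averaged 2988 ± 322 and 2674 ± 151 CPM, a bound of 1.39-fold. Its day 4 libraries all lay below its day 0 libraries, but by a log2 fold change of only -0.16 (SE 0.14). DPPA4, a chromatin protein of pluripotent cells, was bounded at 1.28-fold and PRDM14, a repressor of lineage genes, at 1.46-fold. PODXL, the sialomucin that carries the TRA-1-60 epitope, was the most counted gene of the list. It averaged 4972 ± 1425 CPM on day 0 and 5723 ± 825 CPM on day 4, and its interval lay within 2-fold. In all, 22 of the 32 genes were bounded within 2-fold (68.8%, beside 66.5% of all genes) and 13 within 1.5-fold. The share over all genes is lowered by genes with few counts. Among all genes from 10 to 100 CPM it was 91.9%, and at 100 CPM or more 94.7%, both above the share of this list. Without day 0 replicate 2 it was 26 and 20.

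The 10 genes outside the 2-fold bound were NANOG, FOXD3, UTF1, L1TD1, TDGF1, GDF3, THY1, SEPHS1, LINC-ROR and CUZD1, and in 8 of them day 0 replicate 2 was the highest library. NANOG, the third factor of the core network, had 51.9, 128 and 47.0 CPM on day 0 and 42.3, 62.2 and 72.6 CPM on day 4. Day 0 replicate 2 was the highest library, at 128 CPM beside 42.3 to 72.6 CPM in the others. The log2 fold change moved from -0.36 (-1.33 to 0.60) to 0.26 (-0.20 to 0.71) without it. L1TD1, an RNA-binding protein of stem cells, had 610, 1384 and 647 CPM on day 0 and 550, 686 and 595 CPM on day 4. SEPHS1, an enzyme of selenium metabolism, had 228, 1026 and 246 CPM on day 0 and 211, 295 and 337 CPM on day 4. In these genes the bound tightened without that library, to 1.27-fold for L1TD1 and 1.55-fold for SEPHS1. TDGF1, the Nodal co-receptor Cripto, stayed wide because day 4 plate 1 was low: 613, 1198 and 655 CPM on day 0 against 256, 712 and 910 CPM on day 4.

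LINC-ROR, a noncoding RNA, had the largest log2 fold change of the list, -1.03, and its days overlapped. UTF1, a chromatin factor of stem cells, had 7.48, 5.31 and 8.75 CPM on day 0 and 14.3, 17.2 and 9.33 CPM on day 4. The days did not overlap, and the log2 fold change was 0.94 (SE 0.27, adjusted p = 0.885 by edgeR), and 0.76 (0.24 to 1.29) without day 0 replicate 2. CUZD1, which shares 79.9% of its exon length with another annotated gene on the same strand, had 39.5, 18.4 and 59.5 CPM on day 0 and 22.6, 15.1 and 27.6 CPM on day 4. Its days overlapped through day 0 replicate 2, and without that library the log2 fold change was -1.17 (-1.83 to -0.51). TERF1, a telomere protein abundant in stem cells, averaged 1664 ± 49 CPM on day 0 and 1295 ± 294 CPM on day 4, with day 4 below day 0 in every library and a bound of 1.68-fold.

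**Figure D2:**
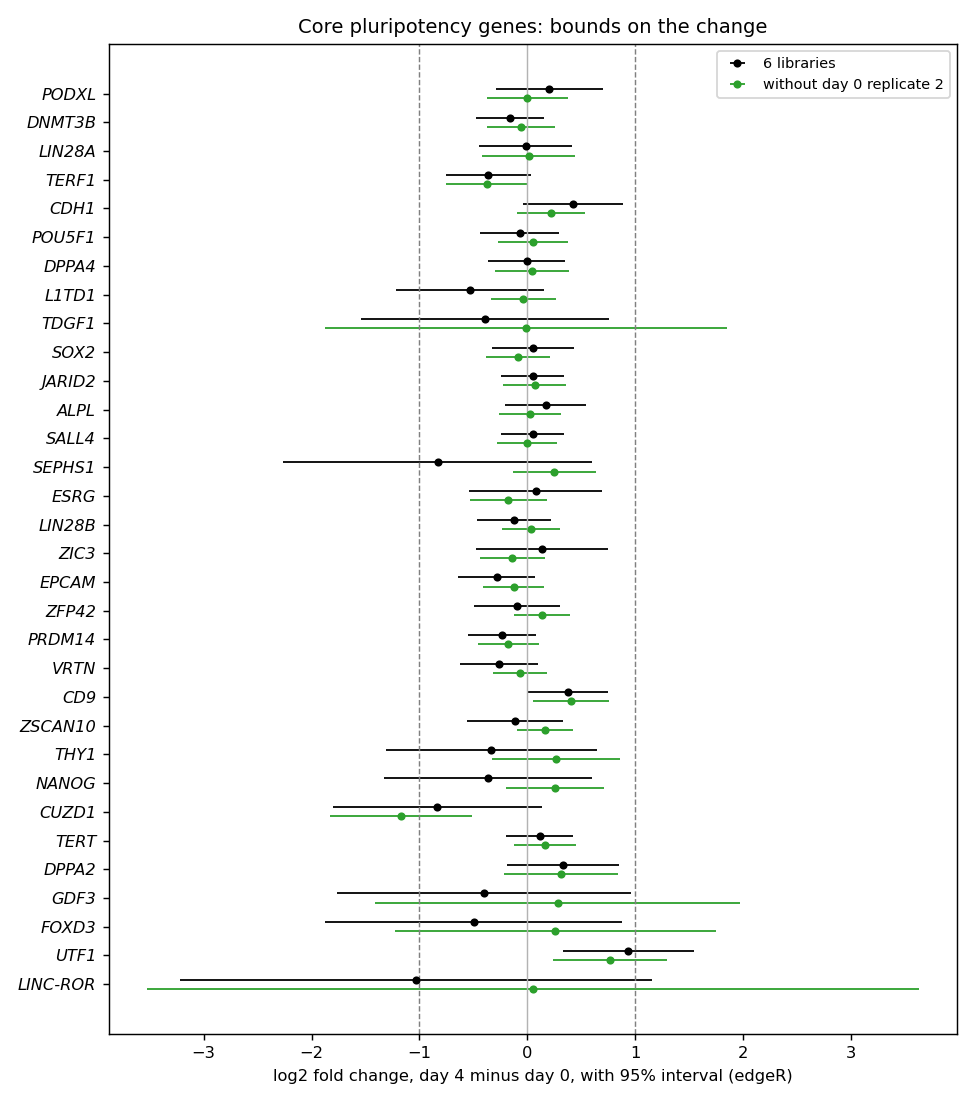
Log2 fold change of day 4 over day 0 for the 32 core pluripotency genes with the 95% interval from edgeR, for all 6 libraries in black and without day 0 replicate 2 in green. The dashed lines mark 2-fold, and the intervals of 22 genes lie between them with 6 libraries and those of 26 without the library that stood apart.

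Other genes distinguish the naive from the primed state. Of 18 naive genes 14 were tested, 0 were called, and their median log2 fold change was 0.40 (0.26 without day 0 replicate 2). Only 3 of 14 were bounded within 2-fold, beside 66.5% of all genes. KLF4, a factor of the naive network, had 8.64, 4.81 and 9.09 CPM on day 0 and 14.7, 13.9 and 8.12 CPM on day 4, with the days overlapping. DNMT3L was counted at 0.71, 0.06 and 1.00 CPM on day 0 and 1.27, 1.09 and 1.71 CPM on day 4. Day 0 replicate 2 was the lowest library in 7 of the 14 genes. All 18 primed-state genes were tested, with 0 called and a median of -0.10 (0.06 without that library), and 11 of 18 were bounded within 2-fold. OTX2, a factor of the primed epiblast, had 124, 78.1 and 145 CPM on day 0 and 202, 103 and 92.6 CPM on day 4, and ZIC2 had 71.1, 78.2 and 90.5 CPM against 153, 100 and 65.7 CPM. Both were highest in day 4 plate 1.

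The FGF and Nodal pathways, which hold primed cells in the pluripotent state, also had no gene past the test. None of the 21 FGF genes was called, with a median of -0.10 that became 0.34 without that library, and 13 of the 21 were highest in it, beside 29.6% of all genes. Within 2-fold, 6 of 21 were bounded, and 13 without that library. Several of these were feedback targets of FGF signalling. DUSP6, the phosphatase that limits ERK, had 7.79, 36.8 and 5.00 CPM on day 0 and 3.91, 9.60 and 15.1 CPM on day 4. SPRY4, an inhibitor of receptor tyrosine kinase signalling, had 17.8, 80.9 and 14.4 CPM against 11.1, 24.1 and 31.1 CPM. ETV5, an ETS factor induced by FGF, had 4.85, 18.3 and 3.33 CPM against 6.08, 8.69 and 10.5 CPM. For ETV5 the log2 fold change went from -0.10 to 1.00 (0.44 to 1.57) without day 0 replicate 2, and the 3 day 4 libraries then lay above the 2 remaining day 0 libraries, but the adjusted p was 1.00 in edgeR. For the receptor FGFR1, day 0 replicate 2 was the lowest library. FGFR1 stood at 1355, 566 and 1317 CPM on day 0 and 1443, 1289 and 1277 CPM on day 4.

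Of 20 genes of the Nodal and Activin pathway 19 were tested and 0 called, with a median of 0.03 (0.24 without that library) and 10 of 19 bounded within 2-fold. The ligand NODAL had 1.10, 6.29 and 0.92 CPM on day 0 and 0.86, 2.23 and 1.25 CPM on day 4. The Nodal antagonist LEFTY1 had 0.89, 12.1 and 1.00 CPM against 0.45, 1.96 and 2.75 CPM. Both were highest in day 0 replicate 2. The transducer SMAD2 was bounded within 1.30-fold, with 201, 190 and 201 CPM on day 0 and 177, 171 and 211 CPM on day 4. The BMP list had 19 of 20 genes tested, 0 called, a median of 0.12 (0.11 without that library) and 11 of 19 bounded within 2-fold. Day 4 lay wholly above day 0 in 4 of the 19 and wholly below in 0, beside 4.93% and 5.08% of all genes. SMAD6, an inhibitory SMAD, had 10.9, 6.54 and 10.8 CPM on day 0 and 15.7, 16.6 and 14.6 CPM on day 4, with no overlap. Its log2 fold change was 0.73 (SE 0.22), and 0.53 without day 0 replicate 2. BMP7 had 52.9, 22.1 and 43.3 CPM against 70.6, 65.6 and 55.0 CPM, also with no overlap, at 0.70 and then 0.41 without that library.

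Many early lineage genes were too low to be tested on either day. In the primitive streak and mesoderm list 11 of 25 genes did not pass the low-count filter, among them TBXT, EOMES, GSC, MESP1 and CDX2, which mark the streak and its mesoderm, and none of the 11 exceeded 0.57 CPM in any library. TBXT (Brachyury) had 0.21, 0.25 and 0.42 CPM on day 0 and 0.32, 0.35 and 0.12 CPM on day 4. Among definitive endoderm genes 9 of 15 were under the filter, including SOX17, FOXA2 and GATA4. The filter also left out 12 of 22 neural ectoderm genes, including SOX1, and 8 of 21 genes of amnion, trophoblast and surface ectoderm, including TP63 and GATA3. The highest value of any such gene in these 4 lists was 0.83 CPM, for SIX3 in day 4 plate 1. Of the members that were tested, 14 of streak and mesoderm, 6 of endoderm, 10 of neural ectoderm and 13 of amnion, trophoblast and surface ectoderm, 0 were called. Their median log2 fold changes were 0.21, 0.19, -0.08 and 0.30, and 0.22, 0.32, -0.07 and 0.13 without day 0 replicate 2. Within 2-fold, 3 of 14, 2 of 6, 4 of 10 and 5 of 13 were bounded, so the intervals of the others left room for a wider change.

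Among the tested lineage genes, some varied between single libraries. KDR, the VEGF receptor that later marks mesoderm, had 264, 360 and 226 CPM on day 0 and 187, 376 and 503 CPM on day 4. LHX5, a LIM homeobox factor of forebrain and hypothalamus, had 23.6, 0.59 and 35.4 CPM on day 0 and 135, 32.1 and 9.58 CPM on day 4, a spread that put its interval at -2.31 to 5.50. WNT3, a streak inducer, had 0.67, 1.33 and 0.58 CPM on day 0 and 1.84, 1.88 and 0.92 CPM on day 4. In none of KDR, LHX5 and WNT3 did all 3 libraries of 1 day stand clear of the other. Day 4 lay wholly above day 0 in 1 of the 6 endoderm and 2 of the 13 amnion, trophoblast and surface ectoderm genes. It did so in 0 streak and 0 neural genes, and lay wholly below in 0 genes of any of these lists. The shares over all genes were 4.93% above and 5.08% below. AFP had the lowest log2 fold change of the endoderm list, -1.26, and -0.75 without day 0 replicate 2.

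Direct targets of Wnt and beta-catenin are given next, but whether the day 4 cells had met CHIR99021 was not tested. Of 20 genes 15 were tested and 0 were called, and the median log2 fold change was 0.38, or 0.13 without day 0 replicate 2, with 7 of 15 bounded within 2-fold. The log2 fold change was positive in 12 of the 15, beside 10181 of all 20964 genes. Day 4 lay wholly above day 0 in 2 of the 15 and wholly below in 1, beside 4.93% and 5.08% of all genes. Day 0 replicate 2 was the lowest library in 8 of the 15, beside 33.7% of all genes. AXIN2, the feedback inhibitor that answers to beta-catenin in most cells, had 53.6, 43.6 and 45.1 CPM on day 0 and 41.9, 41.0 and 41.8 CPM on day 4. All day 4 libraries lay below all day 0 libraries, by a log2 fold change of -0.19 (-0.49 to 0.11), and -0.25 without day 0 replicate 2. LEF1, a transcription factor of the pathway and one of its targets, lay the other way, at 0.71, 0.22 and 0.75 CPM on day 0 and 1.62, 1.13 and 0.83 CPM on day 4, with a log2 fold change of 1.19 (0.10 to 2.29), and 0.74 (-0.11 to 1.60) without that library. SP5, another direct target, did not pass the filter and reached at most 0.45 CPM. NKD1 and TCF7 overlapped between the days, at log2 fold changes of 0.06 and 0.09.

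The cells' own laminin genes bear on the matrix that the cells may add to the coating. Of 12 chains 11 were tested and 0 were called, with a median log2 fold change of 0.14 (0.09 without day 0 replicate 2). Of the 11 chains 7 were bounded within 2-fold, and 10 without that library. Levels between chains were compared per length, in TPM (a length-scaled share of transcripts), rescaled after leaving out 1 short gene that took 20.0% of the TPM of day 0 replicate 3. LAMC1, the gamma 1 chain common to LN-521 and LN-221, was the highest at 265 ± 22 TPM on day 0 and 289 ± 55 TPM on day 4. The beta 2 chain LAMB2 followed at 184 ± 47 and 216 ± 19 TPM. LAMA5, the alpha chain of LN-521, stood at 123 ± 43 and 128 ± 5 TPM, LAMB1 at 89.8 ± 31.6 and 131 ± 20 TPM, and LAMA1 at 88.9 ± 12.7 and 112 ± 6 TPM. LAMA2, the alpha chain of LN-221, was lower at 22.1 ± 9.3 and 31.9 ± 4.4 TPM. LAMA3, LAMA4 and LAMB3 stayed under 5 TPM, and LAMB4 was at or near 0. On day 0 the SD ranges of LAMA5, LAMB1 and LAMA1 overlapped, and so did those of LAMB2 and LAMA5. On day 4 the SD range of LAMB1 overlapped those of LAMA5 and LAMA1, and those of LAMC1 and LAMB2 about met. The order within these groups is therefore not clear.

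**Figure D3:**
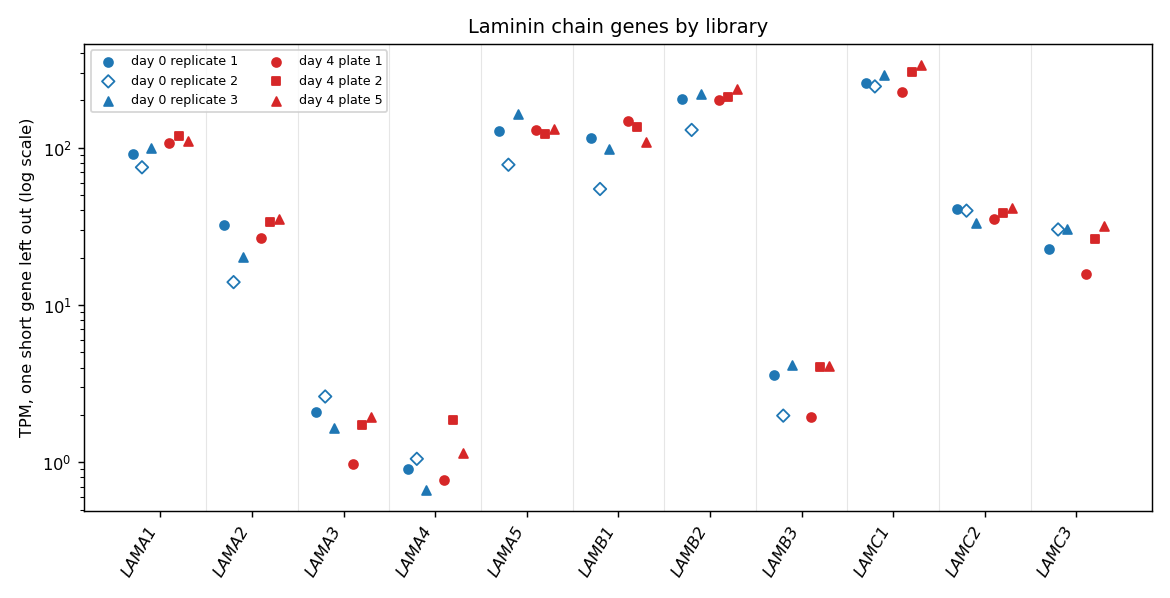
Levels of the 11 tested laminin chain genes in each library, in TPM on a log axis after leaving out 1 short gene. Blue marks day 0, with day 0 replicate 2 as an open diamond, and red marks day 4. LAMC1 is the highest chain and LAMA4 among the lowest on both days, and for LAMA1 all red points lie above the blue ones, by 107 to 119 TPM against 75.2 to 100.1 TPM.

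LAMA1 (chromosome 18, 6941742 to 7117797), the embryonic alpha chain, was the only chain whose days did not overlap, with 355, 306 and 411 CPM on day 0 and 445, 481 and 447 CPM on day 4. Its log2 fold change was 0.36 (0.03 to 0.68, adjusted p = 0.885 by edgeR), and 0.26 (-0.03 to 0.55) without day 0 replicate 2. LAMB1 (chromosome 7, 107923799 to 108003213) had 232, 114 and 208 CPM on day 0 and 315, 279 and 227 CPM on day 4, a log2 fold change of 0.57 (-0.002 to 1.14) that overlapped between days. LAMA5 had 445, 286 and 605 CPM against 484, 442 and 479 CPM, so its day 4 libraries all lay inside the day 0 range, with a bound of 1.52-fold. LAMA2 had 79.8, 36.2 and 52.8 CPM against 70.9, 86.3 and 90.3 CPM, a log2 fold change of 0.55 (-0.03 to 1.14). Day 0 replicate 2 was the lowest of the 6 libraries in each of these 4 chains, and for the list as a whole in 6 of 11, beside 33.7% of all genes.

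Receptors for laminin and other matrix were among the most closely bounded groups. Of 24 genes 22 were tested, 0 were called, and 21 were bounded within 2-fold, 95.5% beside 66.5% of all genes. Among all genes from 10 to 100 CPM the share was 91.9%, and at 100 CPM or more 94.7%. The receptors quoted here lay at such levels, so their share is near that of other genes as abundant. The median log2 fold change was 0.11 (0.09 without day 0 replicate 2). ITGA6 and ITGB1, the subunits of the integrin that binds alpha 5 laminin, had 580, 520 and 595 CPM and 551, 700 and 550 CPM on day 0. On day 4 they had 508, 660 and 673 CPM and 467, 642 and 758 CPM. Their bounds were 1.38-fold and 1.40-fold. DAG1, the dystroglycan that binds alpha 2 laminin in muscle, had 373, 458 and 507 CPM against 458, 581 and 489 CPM. ITGA7, the muscle laminin integrin, had 77.6, 63.3 and 68.1 CPM against 75.3, 86.6 and 78.1 CPM, with a log2 fold change of 0.20 (-0.10 to 0.50). The collagen receptor ITGA2 and the laminin receptor ITGA3, had intervals clear of 0 before adjustment. ITGA2 had 36.7, 34.2 and 35.0 CPM on day 0 and 40.7, 50.5 and 47.4 CPM on day 4, without overlap, at a log2 fold change of 0.39 (0.08 to 0.69), and 0.37 (0.08 to 0.66) without day 0 replicate 2. ITGA3 had 78.6, 51.4 and 62.0 CPM against 72.1, 92.6 and 103 CPM, at 0.48 (0.05 to 0.90), and 0.34 (0.00 to 0.69) without that library.

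No other matrix gene passed the test. All 18 further basement membrane genes were tested, 0 were called, 15 were bounded within 2-fold, and the median was 0.13 (-0.01 without day 0 replicate 2). The collagen IV chains COL4A1 and COL4A2 had log2 fold changes of -0.29 (-0.78 to 0.20) and -0.10 (-0.56 to 0.36), and the proteoglycan AGRN 0.21 (-0.23 to 0.65). In the interstitial matrix list 29 of 31 listed genes were tested, 0 were called and the median was 0.10 (-0.003 without that library), with 19 of 29 bounded within 2-fold. COL14A1, a fibril-associated collagen, had 166, 142 and 156 CPM on day 0 and 210, 201 and 189 CPM on day 4, without overlap, at 0.37 (0.09 to 0.66). COL6A1, a beaded-filament collagen, had 627, 303 and 608 CPM against 650, 739 and 826 CPM. TNC, an adhesion-modulating glycoprotein, had 6.24, 27.8 and 17.5 CPM on day 0 and 3.53, 5.41 and 15.2 CPM on day 4.

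Genes of focal adhesions and Src kinases, which carry signals from integrins, were bounded within 2-fold in 19 of 20 cases and within 1.5-fold in 13. Of these genes 0 were called, and the median was -0.12 (-0.04 without day 0 replicate 2). The share bounded within 2-fold was 66.5% over all genes, 91.9% from 10 to 100 CPM and 94.7% at 100 CPM or more. The focal adhesion kinase PTK2 had 205, 177 and 196 CPM on day 0 and 212, 199 and 212 CPM on day 4, and SRC had 30.4, 28.7 and 38.1 CPM against 41.0, 34.3 and 31.5 CPM. Among 22 YAP and TEAD targets 0 were called, the median was -0.04 (-0.08 without day 0 replicate 2) and 14 were bounded within 2-fold. AJUBA, a LIM protein at adhesion sites, had 81.3, 117 and 101 CPM on day 0 and 71.3, 59.9 and 61.9 CPM on day 4, without overlap. Its log2 fold change was -0.63 (-0.99 to -0.27) and -0.49 (-0.77 to -0.21) without day 0 replicate 2. CCN1, an early YAP target, had 36.4, 110 and 92.2 CPM against 37.9, 45.4 and 43.5 CPM, so day 0 replicate 1 lay below the day 4 range. Epithelial junction genes were bounded within 2-fold in 21 of 23 cases, 91.3% beside the shares above, with 0 called and a median of 0.06 (0.03 without day 0 replicate 2). CDH1, the E-cadherin of the stem cell epithelium, had 1054, 696 and 1280 CPM on day 0 and 1383, 1396 and 1285 CPM on day 4, a narrow gap without overlap at 0.42 (-0.04 to 0.89), and 0.22 without that library.

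Day 0 replicate 2 was also the outermost library for many metabolic genes. All 19 hypoxia response genes had a positive log2 fold change, with a median of 0.35, but 0 were called, and day 0 replicate 2 was the lowest library in 16 of them, beside 33.7% of all genes. Without it the median was 0.16. Of the 19, 8 were bounded within 2-fold, and 15 without that library. BNIP3, a mitophagy receptor induced by HIF, had 245, 61.3 and 266 CPM on day 0 and 330, 231 and 299 CPM on day 4. The glycolysis list had 21 of 23 positive values, a median of 0.21 (0.10 without that library) and that library lowest in 18. LDHA, lactate dehydrogenase A, had 1161, 499 and 1209 CPM against 1340, 1075 and 1339 CPM, and the lactate exporter SLC16A3 182, 34.2 and 218 CPM against 192, 199 and 256 CPM. In each of the 3 the day 4 range overlapped the range of the other day 0 libraries.

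Cholesterol synthesis ran in the opposite direction, with 21 of 23 values negative, a median of -0.30 (-0.12 without day 0 replicate 2), 0 called and that library highest in 18. HMGCS1, an early enzyme, had 161, 307 and 185 CPM on day 0 and 132, 128 and 156 CPM on day 4, without overlap, at -0.65 (-1.17 to -0.13), and -0.31 without that library. The same library was highest for the amino acid transporter SLC7A5, with 109, 1012 and 208 CPM on day 0 and 71.3, 142 and 144 CPM on day 4, and for MYC, with 23.1, 82.8 and 19.8 CPM against 16.5, 23.7 and 36.5 CPM. The metallothioneins and metal response genes, with a median of -0.39 that became 0.08 without it, were highest there in 10 of 14 cases and bounded within 2-fold in 5. The part of that library in these medians was not tested.

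**Figure D4:**
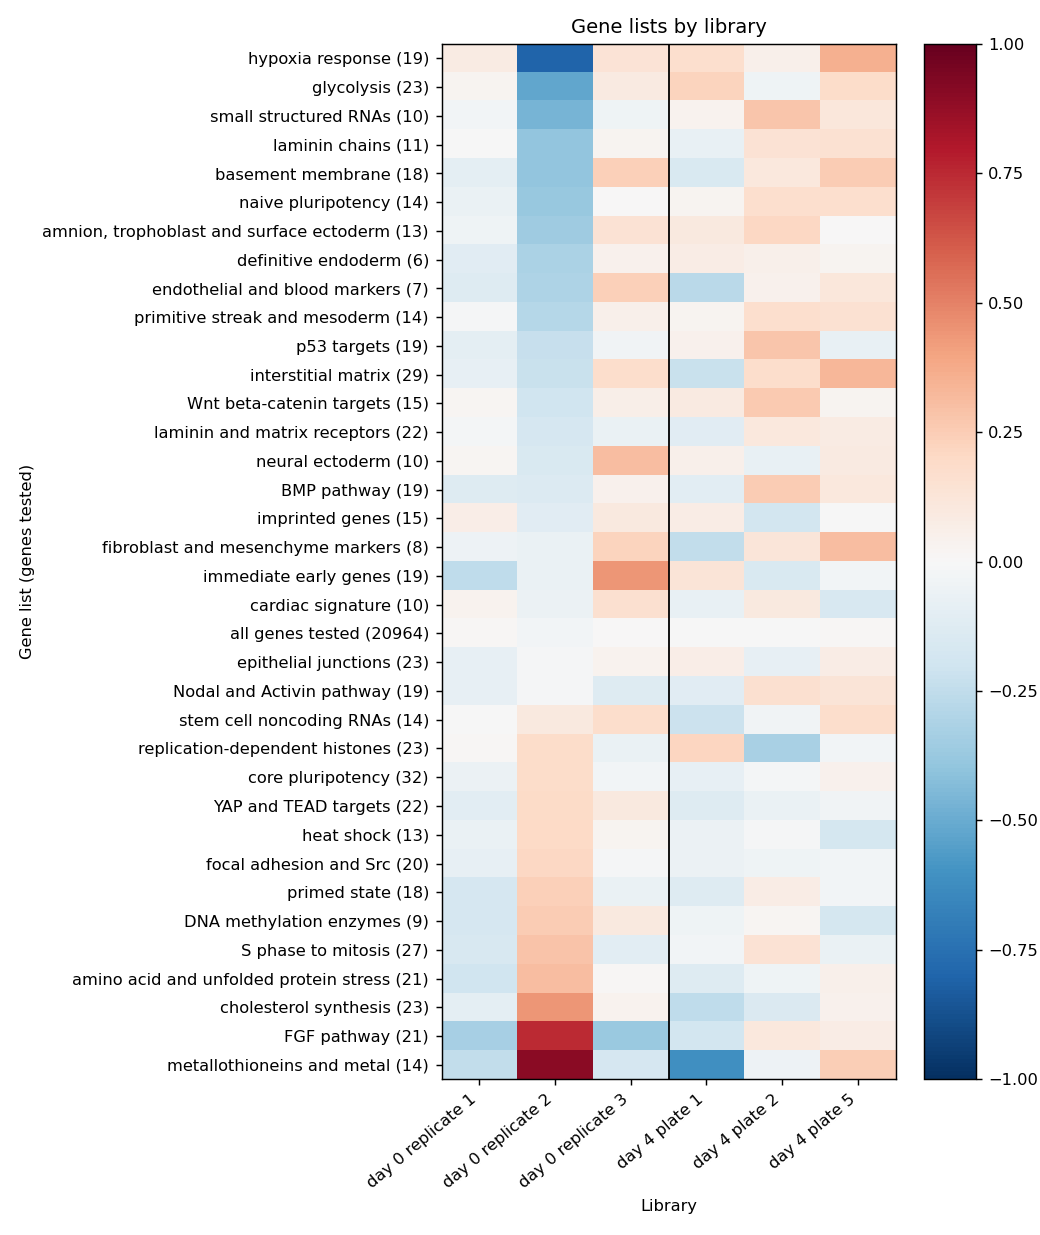
Median deviation of each gene list in each library from the mean of the 6 libraries, in log2 CPM, ordered by day 0 replicate 2, with the number of genes tested beside the list name. Red is above and blue below the mean, and the vertical line separates the days. Day 0 replicate 2 holds the strongest colours, from -0.80 for hypoxia response to 0.90 for metallothioneins, while the row of all genes tested stays near 0.

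The other lists had 0 genes called. The median log2 fold change was 0.01 (0.11 without day 0 replicate 2) for 27 genes of S phase to mitosis, of which 25 were bounded within 2-fold, and TOP2A had 670, 640 and 667 CPM on day 0 and 802, 893 and 807 CPM on day 4 at 0.34 (0.06 to 0.62), and 0.32 without that library. It was -0.04 for 23 histone genes (0.01 without that library). For 19 p53 targets the median was 0.09, and 0.20 without day 0 replicate 2. For 21 amino acid and unfolded protein stress genes it was -0.13 and turned to 0.09 without that library, and for 13 heat shock genes it was -0.13 and then -0.02. It was -0.10 and then -0.12 for 19 immediate early genes, in which day 0 replicate 3 was high (FOS at 42.0, 80.8 and 150 CPM against 72.5, 39.5 and 36.7 CPM). For 9 DNA methylation enzymes the median was -0.14, and -0.04 without day 0 replicate 2. For 15 imprinted genes it was 0.01 and turned to -0.05, and for 14 stem cell noncoding RNAs it was -0.22 and then -0.11. DANCR, a host transcript of the last group, had 117, 188 and 133 CPM on day 0 and 94.4, 84.0 and 116 CPM on day 4, without overlap. Among 10 small structured RNAs, the median was 0.26 (0.13 without that library). RN7SL2, an RNA of the signal recognition particle, had 472, 384 and 332 CPM against 576, 586 and 640 CPM, at a log2 fold change of 0.60 (SE 0.16), but near-identical copies of it exist in the genome.

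No marker of another cell type passed the test. The cardiac signature had 10 of 11 genes tested, 0 called and a median of -0.01 that was -0.23 without day 0 replicate 2. Of the 10, 5 were bounded within 2-fold, beside 66.5% of all genes. Day 4 lay wholly below day 0 in 2 of the 10 and wholly above in 0, beside 5.08% and 4.93% of all genes. TNNT2, cardiac troponin T, had 3.33, 7.90 and 4.84 CPM on day 0 and 2.35, 2.66 and 3.29 CPM on day 4, a narrow gap without overlap. Fibroblast and mesenchyme markers had 8 of 13 tested, 0 called and a median of -0.02 (-0.08 without day 0 replicate 2). Within 2-fold, 4 of the 8 were bounded, and TWIST1, PRRX1, LUM and DCN were under the filter on both days. COL1A1 and COL1A2, which this list shares with the matrix genes, were well counted in all libraries, COL1A1 at 575, 303 and 802 CPM on day 0 and 468, 726 and 729 CPM on day 4. Endothelial and blood markers had 7 of 14 tested, 0 called and a median of -0.24 that turned to 0.26 without that library. Only 1 of the 7 was bounded within 2-fold. Day 4 lay wholly below day 0 in 1 of the 7 and wholly above in 0, and PTPRC and HBE1 were at or near 0. In bulk RNA, fewer cells of a type and less RNA per cell cannot be told apart.

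For the largest shifts that every replicate shared, the rule took the 12 largest positive and the 12 largest negative log2 fold changes among genes with a symbol, at least 5 CPM on average and no overlap between the days. Of the 12272 genes at that level 1161 did not overlap, or 9.46%. None of the 24 passed the test, each at an adjusted p of 0.885 by edgeR, so they are values and not calls, and their direction follows from the rule. Day 0 replicate 2 was the lowest library in all 12 of the first group and the highest in all 12 of the second.

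On the higher side, DES, the muscle intermediate filament desmin (chromosome 2, 219418377 to 219426735), had 5.56, 1.91 and 2.92 CPM on day 0 and 6.20, 14.1 and 9.12 CPM on day 4. Its log2 fold change was 1.49 (0.52 to 2.46), and 1.15 (0.16 to 2.14) without day 0 replicate 2. SLITRK2, a neuronal membrane protein, had 5.46, 1.45 and 5.75 CPM against 11.5, 14.2 and 7.99 CPM, at 1.44 and then 1.01 (0.50 to 1.53). RHOU, an atypical small GTPase that Wnt signals can induce, had 8.26, 6.05 and 9.67 CPM against 22.5, 15.3 and 12.1 CPM, at 1.07 (0.48 to 1.67) and then 0.91 (0.36 to 1.46). LGALS1, the laminin-binding lectin galectin-1, had 11.2, 4.91 and 9.67 CPM against 15.4, 18.0 and 18.4 CPM, at 1.01 (0.38 to 1.64) and then 0.72 (0.37 to 1.07). The gap between the days was narrow in DES, where 5.56 CPM in day 0 replicate 1 met 6.20 CPM in day 4 plate 1, and wider in LGALS1.

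The cartilage collagen gene COL9A2 had 11.2, 2.41 and 10.5 CPM on day 0 and 18.4, 27.4 and 12.9 CPM on day 4. The small nucleolar RNA SNORA54 had 4.78, 2.59 and 4.08 CPM against 7.76, 8.77 and 8.45 CPM. ARRDC4, an arrestin-domain gene, had a log2 fold change of 0.97. SAMD11, PPP1R3C, ICAM1 and TRIM38 completed the 12 with UTF1, and their log2 fold changes ran from 0.93 for TRIM38 to 1.29 for SAMD11. Without day 0 replicate 2 these 4 lay between 0.53 and 0.79.

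On the lower side, RGS5, a regulator of G-protein signalling typical of pericytes (chromosome 1, 163111121 to 163321791), had 44.04, 119 and 75.9 CPM on day 0 and 24.3, 25.5 and 37.6 CPM on day 4. Its log2 fold change was -1.45 (-2.27 to -0.64), and -1.03 (-1.73 to -0.33) without day 0 replicate 2. CALCR, the calcitonin receptor, had 7.79, 15.6 and 9.42 CPM against 2.93, 3.84 and 6.87 CPM, at -1.27 and then -0.91 (-1.62 to -0.21). ARHGAP23, a GTPase-activating protein, had 31.1, 84.8 and 42.4 CPM against 19.9, 23.3 and 26.3 CPM, at -1.19 and then -0.66 (-1.01 to -0.31). TEK, the angiopoietin receptor TIE2, had 61.0, 116 and 69.4 CPM against 34.1, 49.6 and 49.4 CPM, at -0.89 and then -0.55 (-0.90 to -0.20). In each of the 4, day 0 replicate 2 was the highest library and the fold change was smaller without it.

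SOCS3, the feedback inhibitor of JAK and STAT signalling, showed how far a single library could carry a value. It had 9.07, 39.6 and 14.0 CPM on day 0 and 8.56, 9.04 and 8.74 CPM on day 4, and its log2 fold change of -1.26 became -0.37 (-0.79 to 0.06) without day 0 replicate 2. DNM3, a dynamin, was the opposite case, with 8.15, 9.35 and 8.84 CPM against 4.10, 5.28 and 5.04 CPM and values of -0.87 and -0.81. LHFPL6, PRICKLE1 (planar cell polarity), UPK3B (a uroplakin), SHISA9, GAS5-AS1 and SNHG3 completed the 12. GAS5-AS1 lies antisense to another gene and the sources do not say whether counting used strand, so its reads cannot be told apart from those of its partner where the exons overlap.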

How the data were processed

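Per the labels and methods, ribosome-depleted, stranded total RNA of H1 cells was sequenced as 150-base read pairs, aligned to GRCh38 (Ensembl release 79) with STAR 2.5.2b and counted with featureCounts 1.5.1, with no strand option named in the sources used here. The authors deposited raw counts per gene without ribosomal and mitochondrial genes, and TPM from them. The deposited sample table gives the integrity number as a score and the uniquely mapped share as a fraction. Tests on counts used R 4.3.3 and edgeR 4.0.16 (TMM scaling, genes kept by filterByExpr at 10 counts or more and a total of 15, robust quasi-likelihood, two-sided, Benjamini-Hochberg over all genes, 6 libraries, no covariates). SE is the log2 fold change over the root of F. Depth, 11990302 to 33469703 counts per library, and replicate spread set each interval. Symbols and coordinates came from GENCODE v44. Alternatives are given at the end, with DESeq2 1.42.0 and limma 3.58.1 among them. The methods were tested on simulated data. Members and all 35 gene lists were chosen with earlier results of these data known. The named shifts were the 12 largest in each direction without overlap and at 5 CPM or more, with none required to pass. Libraries of other days entered only the day 9 comparison and the fit of all 15 libraries.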

Additional observations from a re-analysis of the deposited data

How the results depend on the processing

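The counts of 0 genes higher and 0 lower on day 4 held with upper-quartile or library-size scaling, DESeq2, limma on log2(TPM + 1), protein-coding genes only, a mean of at least 1 CPM, the 20 most counted genes left out, all 15 libraries in one fit, and each library left out (0 to 0 for both). Without the low-count filter, edgeR called 31 genes higher and 33 lower of 41029, 60 of these 64 within the genes tested above and 16 within the 24 named shifts. DESeq2 without day 0 replicate 2, added after the data were seen, called 0 higher and 1 lower, CUZD1. The replicate block, which pairs day 0 replicates 1 and 2 with day 4 plates 1 and 2, called 284 higher and 125 lower. It rests on 2 pairs with 1 residual degree of freedom, and these numbers count replicates on one day and plates on the other, so they are not known to pair the cultures. Deviations of the same-numbered libraries correlated at 0.24 and 0.27, and those of day 0 replicate 3 and day 4 plate 1, which share no number, at 0.16. In both fits edgeR took the spread almost wholly from all genes together (median total degrees of freedom 164116 and 20964, against 9.63). The share of genes bounded within 2-fold was 66.5%, between 54.1% and 70.6% with a library left out, 56.0% with the block, 36.6% without the filter, 43.7% with all 15 libraries and 34.8% at a bound of 1.5-fold. Of the 32 pluripotency genes 22 were bounded, between 20 and 26 with a library left out, 10 with all 15 libraries and 13 at 1.5-fold. Of 592 single genes, 151 moved by more than their SE without day 0 replicate 2 and 7 to 42 without another library. Depth limits the statement for genes under 1 CPM.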
